A study of Mus musculus with 2 samples.

Results

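The intronic DNase I hypersensitive sites of very long genes in newborn mouse kidney are described here. A site belonged to the set when it was autosomal, held a peak of both replicates, had its centre over 1 kb from every transcription start site (TSS) of GENCODE M21 and outside every exon, and lay inside a protein-coding gene of at least 300 kb. The rule found 18352 sites of 197749 shared sites in all, in 541 very long genes, and 244 of the sites lay in more than 1 of these genes. They made up 9.43% of the shared autosomal sites. The 51625 intronic sites of protein-coding genes under 300 kb, found in the same way, served as the comparison.

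The study profiled kidney tissue of B6NCrl mice at day 0 after birth by DNase-seq, with no other tissue, age, genotype or treatment. It has 1 group of 2 biological replicates, and both replicates carry the same donor record, so differences between them may be only technical. Sex was not collected. Replicate 1 held 266133 peaks and replicate 2 held 257133, called per sample, and sequencing depth is unknown because the lists hold no read counts. All 10 kidney marker genes checked, among them Pax2, Wt1 and Six2, had a promoter site in both replicates, as did 5 of 6 neuronal, 3 of 6 muscle, 3 of 5 adrenal and 1 of 5 leukocyte markers. Of the 541 very long genes 508 had a promoter site too, and the share over all genes is not given here. The kidney and neuronal counts therefore do not tell these tissues apart. The part of nerve or other neighbouring tissue in the sites below was not tested.

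DNase I cuts DNA that is not wrapped around nucleosomes, and hypersensitive sites away from promoters include enhancers, which bind transcription factors, and insulators, which bind CTCF. Much of a mammal's distal regulatory sequence lies in introns, and a site in an intron may act on its host gene or on a neighbour. Very long mammalian genes are mostly introns. Many encode adhesion molecules, receptors and channels of neurons, while others encode developmental transcription factors, and several contain common fragile sites.

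The sequences below show what the members look like. They are the plus strand of GRCm38 (the same build as mm10) from RefSeq's assembly, each over the whole shared site and intronic by the rule, with exact matches to the 19 motifs searched in capitals and all else in lower case. The first lines give the 5 sites with the highest mean rank of signal among those with no further close match in the genome (at least 80% identity over at least 100 bp).
Gm20388, chr8:121585501-121585650: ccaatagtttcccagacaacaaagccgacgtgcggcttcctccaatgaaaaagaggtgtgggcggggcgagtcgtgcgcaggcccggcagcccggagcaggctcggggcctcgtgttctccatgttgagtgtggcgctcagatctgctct
Lrmda, chr14:22783341-22783510: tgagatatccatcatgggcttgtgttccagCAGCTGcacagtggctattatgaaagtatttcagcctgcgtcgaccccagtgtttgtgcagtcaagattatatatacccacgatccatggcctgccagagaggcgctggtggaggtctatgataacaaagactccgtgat
Maml3, chr3:52102181-52102330: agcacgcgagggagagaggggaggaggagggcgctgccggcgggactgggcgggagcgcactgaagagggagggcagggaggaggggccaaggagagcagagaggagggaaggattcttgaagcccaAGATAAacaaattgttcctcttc
Arid1b, chr17:5189841-5189990: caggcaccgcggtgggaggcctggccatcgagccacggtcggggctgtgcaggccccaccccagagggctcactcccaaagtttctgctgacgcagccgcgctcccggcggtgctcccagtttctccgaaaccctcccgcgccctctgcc
Slc7a11, chr3:49909081-49909230: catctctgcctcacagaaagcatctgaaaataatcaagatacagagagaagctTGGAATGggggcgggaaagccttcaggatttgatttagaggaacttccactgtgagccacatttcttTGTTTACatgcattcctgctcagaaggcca
Of these 5 strong sites, 3 held any of the motifs. The Lrmda site held the E-box CAGCTG, the Maml3 site the GATA motif AGATAA, and the Slc7a11 site the TEAD motif CATTCCA on the minus strand and the FOX motif TGTTTAC. The Maml3 site lay 2820 bp from the nearest TSS and the Gm20388 site 3811 bp, while the Lrmda, Arid1b and Slc7a11 sites lay 8182, 77806 and 92816 bp away.

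The next lines give the strongest site in each of 3 of the densest genes. That of Maml3, also among the densest, is shown above.
Gse1, chr8:120276441-120276610: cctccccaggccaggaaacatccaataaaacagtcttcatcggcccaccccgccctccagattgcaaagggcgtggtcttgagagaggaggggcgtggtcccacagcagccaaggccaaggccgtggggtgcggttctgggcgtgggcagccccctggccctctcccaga
Msi2, chr11:88460401-88460610: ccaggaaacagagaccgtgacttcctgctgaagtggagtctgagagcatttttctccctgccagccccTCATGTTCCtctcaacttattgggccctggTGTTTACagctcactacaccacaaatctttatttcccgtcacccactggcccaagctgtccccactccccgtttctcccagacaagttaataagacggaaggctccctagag
Rad51b, chr12:79612821-79612970: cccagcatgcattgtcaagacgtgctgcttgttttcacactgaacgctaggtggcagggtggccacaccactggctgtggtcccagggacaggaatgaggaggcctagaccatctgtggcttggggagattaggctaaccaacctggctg
The Msi2 site held the motif TCANGTTNC, which factors of nephron progenitors such as Six2 bind, and the FOX motif. The Gse1 and Rad51b sites held none of the 19. The Gse1 site also lies in the longer model Gm20388.

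The last lines give, in 4 of the genes described whatever their values, the strongest site with a CTCF motif, since CTCF was the motif that stood furthest from its flanks among those found at over 1% of sites.
Cntnap2, chr6:47013681-47013830: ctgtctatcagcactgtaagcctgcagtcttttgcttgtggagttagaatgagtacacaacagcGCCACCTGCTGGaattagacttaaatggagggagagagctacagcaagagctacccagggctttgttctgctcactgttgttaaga
Prkg1, chr19:30843381-30843550: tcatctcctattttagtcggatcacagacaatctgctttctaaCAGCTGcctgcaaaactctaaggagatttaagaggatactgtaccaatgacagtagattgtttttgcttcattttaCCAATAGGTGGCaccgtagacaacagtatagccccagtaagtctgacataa
Zbtb20, chr16:43540221-43540370: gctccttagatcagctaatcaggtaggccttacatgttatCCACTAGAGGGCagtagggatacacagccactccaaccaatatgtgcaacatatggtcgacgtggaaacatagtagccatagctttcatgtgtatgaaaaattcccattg
Dlg2, chr7:91457321-91457490: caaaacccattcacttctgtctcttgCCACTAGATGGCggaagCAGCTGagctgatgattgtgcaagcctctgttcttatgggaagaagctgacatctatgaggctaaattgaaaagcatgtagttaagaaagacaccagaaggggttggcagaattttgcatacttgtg
These sites lay 29988 bp (Zbtb20) or more from the nearest TSS. Their signals were 79.5 and 84.7 (replicates 1 and 2) in Cntnap2, 80.05 and 74.4 in Prkg1, 64.6 and 63.5 in Zbtb20, and 60.9 and 63.3 in Dlg2.

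Introns of very long genes held fewer sites per base than those of shorter genes. Density was counted per 100 kb of eligible intron, which is sequence outside all exons, over 1 kb from every TSS and not unknown in the reference. Introns of genes of at least 300 kb had 6.28 shared sites per 100 kb (exact Poisson 95% interval 6.19 to 6.38), against 9.67 (9.59 to 9.76) in genes under 300 kb, a ratio of 0.650. Counted as peaks, the very long genes had 9.07 (replicate 1) and 8.22 (replicate 2) per 100 kb (8.64 ± 0.600, SD, n = 2), and the shorter genes had 13.2 and 12.9 (13.0 ± 0.241). The lower density of the very long genes held within each replicate, with ratios of 0.687 in replicate 1 and 0.639 in replicate 2. The exact two-sided paired permutation test over the 2 replicates gave p = 0.5, the smallest value that 2 pairs allow, so no such difference could pass a threshold here.

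The lower density lay at the long end of the gene length scale and went on falling there. Genes of at least 200 kb had 7.23 sites per 100 kb and genes of at least 500 kb had 5.24. Genes of 100 to 300 kb had 10.3 sites per 100 kb, genes of 30 to 100 kb had 9.10 and genes under 30 kb had 9.01. The very long genes held 35.4% of the eligible intron sequence of coding genes and 26.2% of its sites. At the rule's threshold, the 23 genes of 300.3 to 309.8 kb had a pooled density of 6.20 and the 30 genes of 290.7 to 299.8 kb one of 11.3, with medians over genes of 5.49 and 9.91. These groups are small and vary widely from gene to gene, so they do not place a step at 300 kb. Nearest the threshold on the inside were Kcnq3 (300.3 kb) with 2.84 sites per 100 kb and Pam (300.5 kb) with 7.68, and on the outside Jazf1 (299.8 kb) with 19.2 and Akap13 (299.1 kb) with 21.4.

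**Figure D1:**
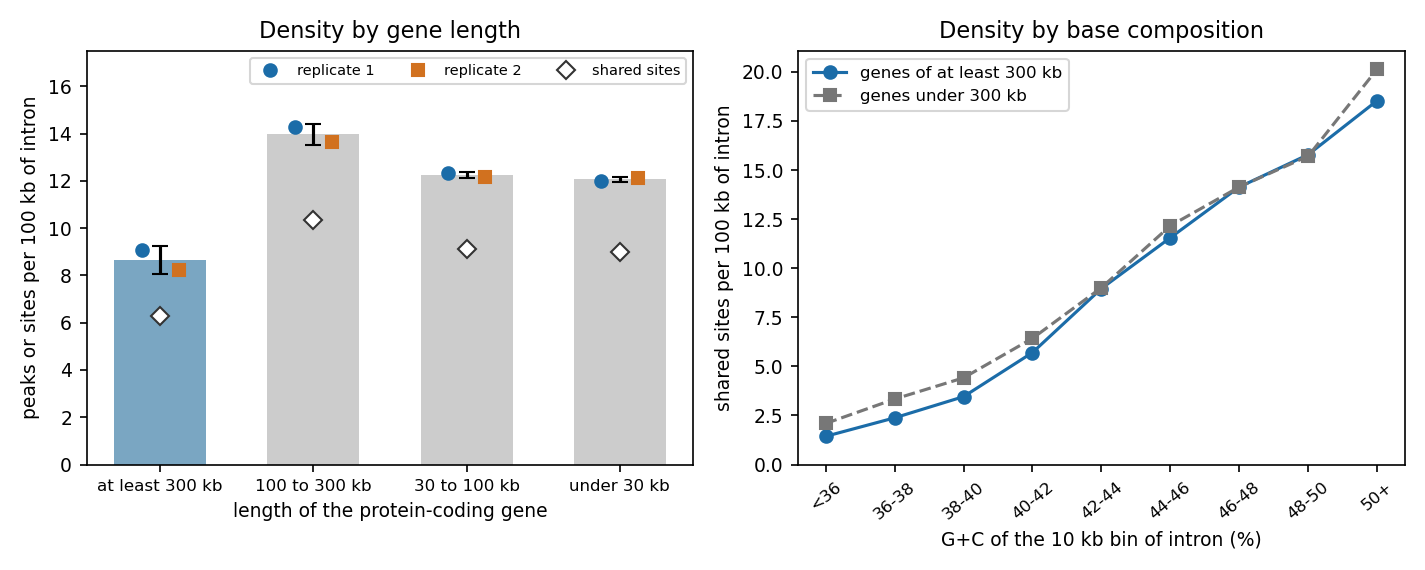
Left, peaks per 100 kb of eligible intron in replicate 1 (circles) and replicate 2 (squares) by gene length, with their mean (bars) and SD (n = 2), and shared sites per 100 kb (diamonds); genes of at least 300 kb stand lowest, with 6.28 shared sites. Right, shared sites per 100 kb of intron by G+C of 10 kb bins for very long genes (circles) and shorter genes (squares); the ratio is 0.686 in the lowest class and 0.995 at 42 to 44%.

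Base composition moved with this difference. Introns of very long genes had a G+C of 40.8%, against 42.8%, 43.4% and 44.5% in genes of 100 to 300, 30 to 100 and under 30 kb. In bins under 36% G+C the very long genes had 1.43 sites per 100 kb and the shorter genes 2.09, a ratio of 0.686. The ratio was 0.713 at 36 to 38%, 0.783 at 38 to 40% and 0.887 at 40 to 42%. At 42 to 44% both had close to 9 sites per 100 kb (8.96 in very long genes and 9.01 in shorter ones, ratio 0.995). Above that the ratio lay between 0.920 (50% or more) and 1.00 (48 to 50%). In single replicates it was 1.02 and 0.977 (replicates 1 and 2) at 42 to 44%, 1.02 and 1.00 at 46 to 48%, and 1.03 and 1.01 at 48 to 50%, so from 42% up the very long genes were not lower in every class and replicate. Of the intron sequence of the very long genes, 8.60% lay in the lowest class, against 2.98% of that of shorter genes.

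Each gene's count was therefore also set against the number given by shorter genes' introns of the same G+C. Over the 541 genes together the observed count was 0.908 of that number for shared sites, 0.929 and 0.889 for the peaks of replicates 1 and 2 (0.909 ± 0.0287, SD, n = 2). Over genes the median was 0.741, and 199 genes were above 1.

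Single genes differed far more than the classes. Density per gene had a median of 5.11 sites per 100 kb, quartiles of 2.25 and 10.5, and a range of 0 to 35.2. The 105 genes with at least 2 times the density over all very long genes (12.6 or more), called rich here and 19.4% of the 541, held 42.9% of the site counts on 15.7% of the eligible sequence. The 85 genes at or under a density of 1.57, the overall value divided by 4, called bare here and 15.7% of the 541, held 2.17% on 17.7%. The 54 densest genes held 25.9%. The order was nearly the same in both replicates, with Spearman's rho of 0.988 across the 541 genes for peaks per 100 kb. Genes are not independent replicates, and no p is given.

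The densest gene was Gse1, with 116 shared sites in 329.4 kb of eligible intron, 35.2 per 100 kb (interval 29.1 to 42.2), from 149 peaks in replicate 1 and 144 in replicate 2. Its introns were also rich in G+C (54.1%), and the count was 1.75 times that of shorter genes' introns of equal G+C. Msi2, which encodes an RNA-binding protein of the Musashi family, followed with 116 sites and 32.4 per 100 kb (149 and 144 peaks), at 2.15 times the number for its G+C. Both genes had the same site and peak counts, on chromosomes 8 and 11, and differed in eligible length.

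Rad51b, a gene of homologous recombination, had 148 sites and 28.9 per 100 kb, from 208 and 182 peaks. Its introns had a G+C of only 41.8%, so the count was 3.87 times that at equal G+C, second among the 541 genes after Dach1 (4.09 times, 36 sites), a transcription factor gene with a G+C of 35.1% that was named after its value was seen. No stretch of Rad51b over 21.1 kb lacked a site. Maml3, a coactivator of Notch signalling, had 95 sites and 26.5 per 100 kb (115 and 120 peaks).

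Others among the densest genes had similar levels. Apbb2, an adaptor that binds amyloid precursor protein, had 68 sites and 24.8 per 100 kb, and Scfd2, of the Sec1 family, had 72 sites and 24.1. Tcf4, a basic helix-loop-helix factor, had 69 sites and 23.3 per 100 kb. Cmss1 had 66 sites and 23.1, with 72.2% of its span inside other coding genes. Tshz2, a teashirt zinc finger factor, had 97 sites and 22.8 per 100 kb. Their intervals overlapped.

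At the bare end, 5 genes held no shared site at all and 17 held at most 1. Cntnap5c, a gene of the contactin-associated protein family, had 0 shared sites in 633.9 kb of eligible intron, which allows a density of up to 0.473 per 100 kb (3 counts), with 0 peaks in replicate 1 and 2 in replicate 2. Skint5 and Skint6, immunoglobulin-like genes of thymus and skin, had no peak in either replicate in 516.1 and 468.9 kb, which allows 0.581 and 0.640 per 100 kb. Epha5, an ephrin receptor gene, likewise had none in 342.4 kb, which allows 0.876. St18, a zinc finger factor gene, had 0 peaks in replicate 1 and 2 in replicate 2 in 354.3 kb, which allows 0.847. The limits and the intervals cover counting error only. Eligible sequence still held repeats and any duplicated stretches, in which 36-nt reads may have no unique place. The part of this in the empty genes was not tested.

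The next genes each held 1 shared site. Sgcz, which encodes a sarcoglycan of the muscle membrane complex, held it in 1127 kb of eligible intron (0.09 per 100 kb), from 3 peaks in replicate 1 and 1 in replicate 2. Malrd1 had 0.14 per 100 kb, Fstl5 0.16, Zfp804b 0.18 and Iqcm 0.19. Sgcz, Fstl5 and Zfp804b had a promoter site all the same, with signals of 64.5 and 73.3 (replicates 1 and 2) at Sgcz, 53.8 and 72.3 at Fstl5 and 31.7 and 30.2 at Zfp804b. Malrd1 had a weak one (11.7 and 11.9) and Iqcm none. A promoter site therefore did not go with sites in the introns in every gene.

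**Figure D2:**
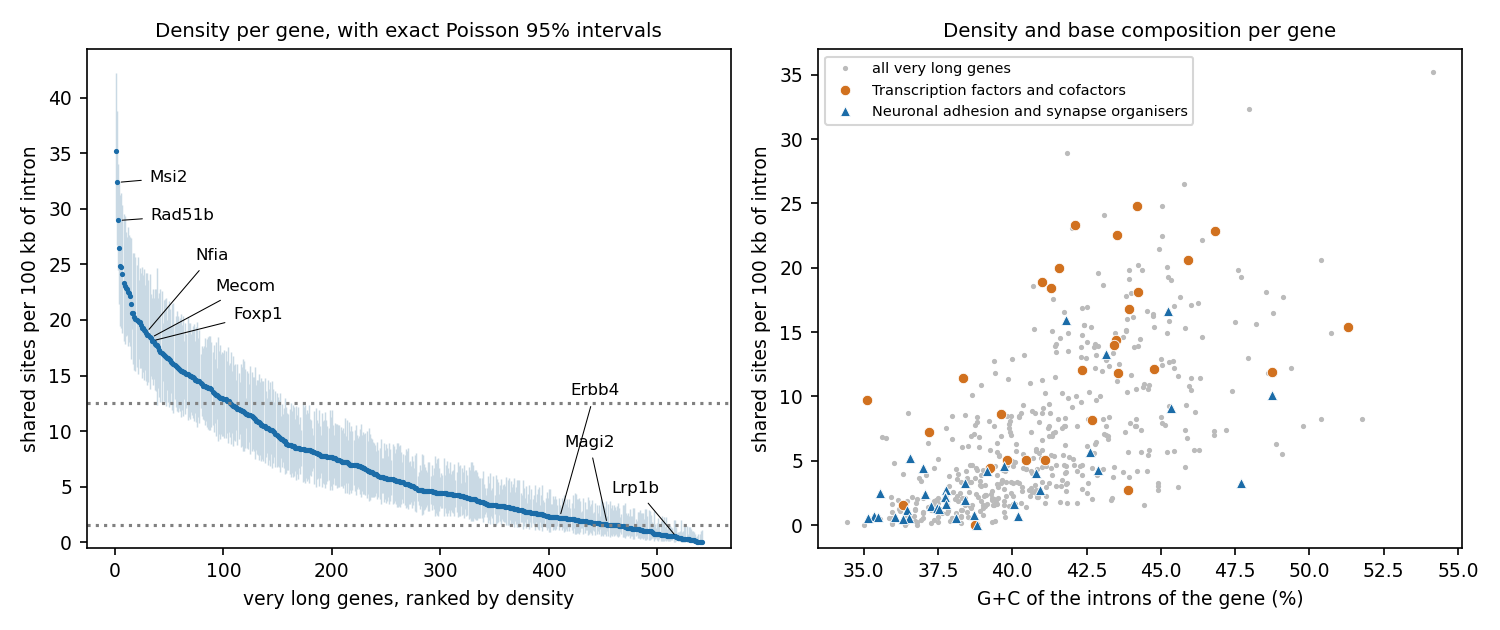
Left, shared sites per 100 kb of eligible intron for each of the 541 very long genes in order of density, with exact Poisson 95% intervals and dotted lines at 12.6 and 1.57 and a range of 35.2 to 0. Right, the same densities against the G+C of the gene's introns (%), with transcription factor genes as circles and neuronal adhesion genes as triangles. Tcf4 reaches 23.3 at a G+C of 42.1%, and Lrp1b has 0.45 at 36.3%.

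Across the 541 genes density went with the G+C of the introns (Spearman's rho 0.712, Pearson's r 0.647) and against the share of soft-masked, repeat-derived bases (rho −0.696, r −0.577). It went weakly against gene length (rho −0.248, r −0.173). The points share the libraries, and G+C, repeats and site density were read from the same introns. Reads of 36 nt may have no unique place in repeats, and the part of this in the densities was not tested. Median G+C was 43.9% in rich, 40.8% in middle and 37.5% in bare genes, and the median soft-masked share 21.5%, 26.5% and 37.9%. Median length was 387.3, 461.3 and 504.6 kb.

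Some models in the annotation are much longer than the gene a reader may know. Gm20388, the longest at 4434.9 kb with the most sites (740, or 20.6 per 100 kb), is a model on chromosome 8 that contains the whole of Gse1, and 50.4% of its span lies inside other coding genes. The Fgfr2 model spans 2960.9 kb in GENCODE M21 and 104.4 kb in RefSeq, and its 296 sites (11.6 per 100 kb) come from the longer span, 53.2% of which lies inside other coding genes. Fgfr2 encodes a fibroblast growth factor receptor that ureteric bud branching uses in mice. By symbol, 527 of the 541 genes matched a RefSeq protein-coding gene, and 508 of these were at least 300 kb there too. Those 508 had a density of 6.09, 104 rich and 74 bare genes.

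Lrmda had 171 sites (16.9 per 100 kb) over 1036.4 kb, and came next in number of sites after those models. Rad51b followed with 148 and Auts2, a cofactor of Polycomb complexes, had 142 sites and 14.4 per 100 kb over 1106.0 kb. The other genes among the 5 longest were sparse. Ptprd, a receptor tyrosine phosphatase gene of 2270.7 kb, had 76 sites (3.43 per 100 kb), Cntnap2, a neuronal adhesion gene of 2244.9 kb, had 36 (1.68), and Lsamp, another of 2197.3 kb, had 59 (2.73).

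Transcription factor and cofactor genes were the densest of the 11 gene lists. The list held 29 very long genes, with 12.03 sites per 100 kb pooled (17.6 and 16.2 peaks per 100 kb in replicates 1 and 2) and a median over genes of 12.02, against 6.32 and 5.11 over all 541. Of the 29 genes, 13 were rich (44.8%) and 2 bare (6.90%), against 19.4% and 15.7% of all 541. At equal G+C the observed count was 1.38 of that in shorter genes, against 0.908 over all very long genes.

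Within this list Tcf4 was among the densest, and Foxp2 (8 sites, 1.56 per 100 kb) and St18 were least dense. Nfia, a nuclear factor I gene, had 62 sites and 18.9 per 100 kb from 94 and 83 peaks, with a G+C of 41.0%, at 2.86 times the number for that G+C. Mecom, a zinc finger factor, had 18.4 sites per 100 kb (153 and 134 peaks), at 2.59 times. Foxp1, a forkhead factor, had 100 sites and 18.1 per 100 kb (146 and 142 peaks), at 1.67 times. Its relative Foxp2 had 21 and 14 peaks, so these forkhead genes lay at opposite ends of the list. Zbtb20, a zinc finger repressor, had 80 sites and 11.4 per 100 kb at a G+C of 38.4%, which was 2.48 times the number for that G+C.

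The 6 nuclear receptor genes had 9.504 sites per 100 kb pooled. Rora, an orphan receptor, had 116 sites (16.3 per 100 kb) and Rarb, a retinoic acid receptor, 49 (13.0). Esrrg, an oestrogen-related receptor expressed in kidney tubules, had 45 sites (7.70 per 100 kb, 68 and 59 peaks). Nr3c2, the mineralocorticoid receptor of the collecting duct, had 18 (5.47), and Thrb, a thyroid hormone receptor, 11 (3.07). The mineralocorticoid receptor gene had a strong promoter site (141.4 and 151.7), while its intronic density was close to the median of 5.11 over all very long genes.

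Signalling genes were spread widely. The 41 growth factor and kinase signalling genes had 8.11 sites per 100 kb pooled and 1.04 of the number at equal G+C. Of these 9 were rich (22.0%, close to the 19.4% of all 541) and 3 bare (7.32%, against 15.7%). The long Fgfr2 model described above, under 300 kb in RefSeq, gave 296 of the list's 1933 site counts. Values of the list without this model were not computed. Prkce, a protein kinase C gene, had 107 sites (22.7 per 100 kb), and Smyd3, a methyltransferase gene, 99 (18.04). Fgf14, an intracellular fibroblast growth factor homologue, had 7 (1.03), and Nrg3, a neuregulin that binds ERBB4, had 4 (0.37). The receptor gene Erbb4 itself had 23 sites in 1038 kb (2.22 per 100 kb, 36 and 26 peaks). Prkg1, a cyclic GMP-dependent kinase gene, had 54 (4.60 per 100 kb, 84 and 71 peaks).

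Junction and polarity scaffold genes split into dense and sparse members. The list's 10 genes had 5.33 sites per 100 kb pooled but a median of 7.06. Of so few genes 4 were rich and 0 bare, where the shares of all 541 were 19.4% and 15.7%. Frmd4b had 49 sites (16.6 per 100 kb) and Magi1, a scaffold of tight junctions, 84 (14.3). Ctnna3, an alpha-catenin gene, had 30 (1.94). Magi2, whose product is a scaffold of the podocyte slit diaphragm, had 23 sites in 1440 kb (1.60 per 100 kb, interval 1.01 to 2.40), from 46 and 36 peaks, just above the bare limit. Its promoter signal was 95.1 and 95.05, above the median of 62.7 over the very long genes. Dlg2 had 46 sites (2.52 per 100 kb), with a promoter signal of 159.6 and 209.8.

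Matrix and guidance genes lay near the overall level. The 20 genes of matrix, proteoglycans and their enzymes had 6.45 sites per 100 kb, or 0.988 of the number at equal G+C. Thsd4 had 100 sites (19.05 per 100 kb) and Ltbp1, which binds latent transforming growth factor beta, 57 (15.5). Spock3 had 4 (1.05) and Ndst4, a heparan sulfate sulfotransferase gene, 3 (0.97). Gpc6, a glypican gene, had 97 (9.31 per 100 kb, 156 and 126 peaks). The 16 guidance receptors and ligands had 5.69 sites per 100 kb and 1.01 of the number at equal G+C. Slit3 had 83 (14.6) and Robo1, a Slit receptor gene, 72 (10.1). Robo2, the receptor that limits ureteric bud outgrowth in mice, had 41 sites (8.70 per 100 kb, 59 and 45 peaks) at a G+C of 36.5%, which was 2.84 times the number for that G+C. Epha6 had 11 (1.17) and Epha5 none.

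The neuronal lists were sparse. The 37 genes of neuronal adhesion and synapse organisation had 2.97 sites per 100 kb pooled (4.62 and 3.86 peaks per 100 kb), and 0.598 of the number at equal G+C. Of these 14 were bare (37.8%, against 15.7% of all 541) and 3 rich (8.11%, against 19.4%). The 51 neuronal channels and receptors had 3.82 per 100 kb (5.53 and 4.803 peaks), and 0.571 at equal G+C. Of these 10 were bare (19.6%, close to the 15.7% of all 541) and 1 rich (1.96%). Both lists stood below the 0.908 of all very long genes after G+C was taken into account. Lrp1b, a lipoprotein receptor gene of 2058.4 kb, had 9 sites (0.45 per 100 kb, 17 and 14 peaks). Csmd1 had 12 in 1643.1 kb (0.75 per 100 kb, 23 and 18 peaks). Kcnh8 had 1 and Nkain2 had 3 (0.27 and 0.26 per 100 kb).

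These lists also had dense members. The teneurin genes Tenm4 and Tenm3 had 114 and 95 sites (16.6 and 15.96 per 100 kb), the kainate receptor gene Grik4 had 54 (13.0) and the calcium channel gene Cacna1d had 45 (10.9). Promoter signal had a median of 39.9 in the adhesion list and 32.5 in the channel list, against 62.7 over all very long genes.

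The smaller lists followed the same range. The 6 receptor tyrosine phosphatase genes had 5.39 sites per 100 kb, with Ptprg at 13.4 and Ptprm at 12.4, and Ptprn2 at 3.26 and Ptprt at 1.70. The 7 cadherin genes had 4.02, or 0.507 of the number at equal G+C, with Cdh4 at 12.2 and Fat3 at 8.75, and Cdh18 at 0.33 and Cdh8 at 0.27. The 19 fragile site genes, known as such in human or mouse, had 4.50 and 0.787 at equal G+C. Wwox, a fragile site tumour suppressor gene, had 136 sites (15.3 per 100 kb). The fragile site list shares genes with the others, among them Rora, Auts2, Dlg2 and Lrp1b.

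**Figure D3:**
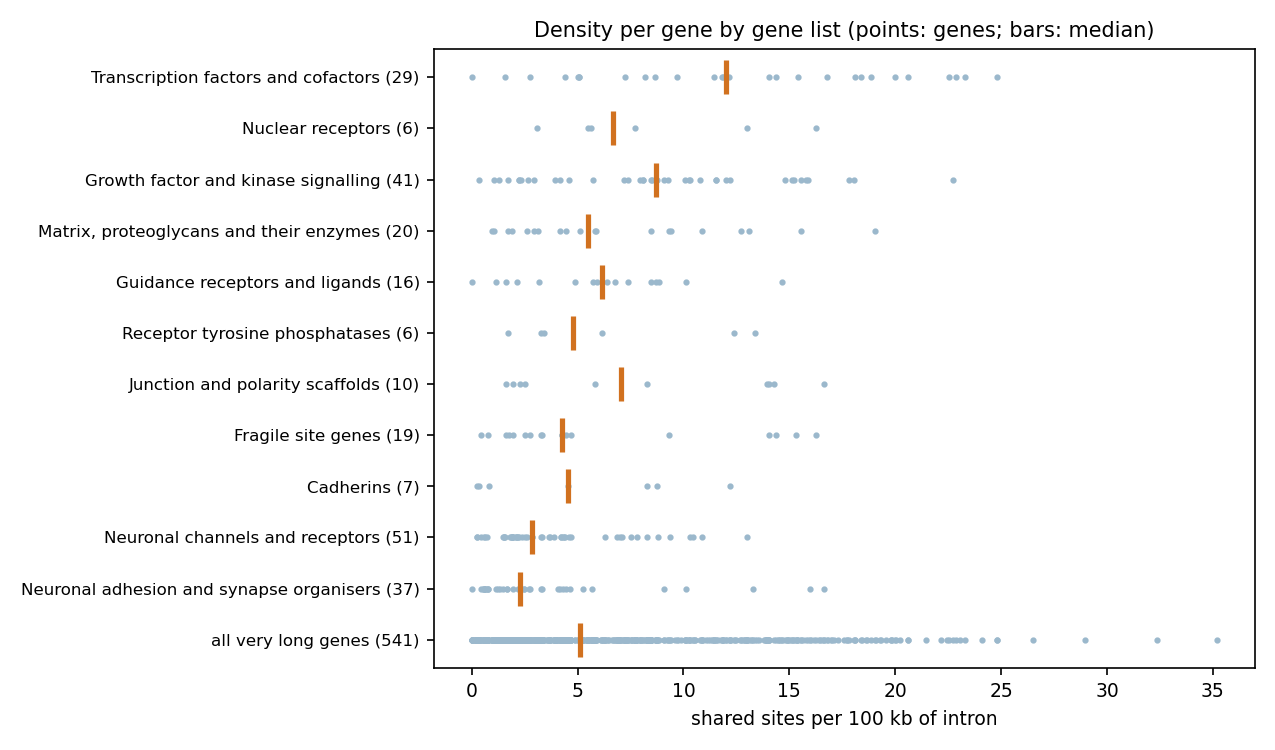
Shared sites per 100 kb of eligible intron (horizontal axis) for each very long gene (points) of 11 gene lists, with the number of genes in brackets and medians as bars, and all 541 very long genes in the bottom row. The median is 12.02 for transcription factors and cofactors and 2.30 for neuronal adhesion genes, against 5.11 over all.

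Among genes with a promoter site, intronic density was higher where that site was stronger. A gene had a promoter site when a shared site lay within 1 kb of any of its TSSs, which held for 508 of the 541. Genes with one had 6.46 intronic sites per 100 kb pooled, and the 33 without had 3.96. In order of promoter signal, 4 groups of 127 genes each had 2.90, 5.36, 8.37 and 9.75 sites per 100 kb, lowest signal first. The same groups stood at 0.498, 0.798, 1.10 and 1.21 of the number at equal G+C, and the genes without a promoter site at 0.658. By medians over genes the order at the low end was the other way, with 2.08 sites per 100 kb and 0.354 at equal G+C in the genes without a promoter site, against 2.37 and 0.419 in the group with the lowest signal. Density and promoter signal had a rho of 0.497 (Spearman) and an r of 0.404 (Pearson) across the 508 genes. The points share the libraries, and the peaks were called in the same lists. Of the 85 bare genes 74 had a promoter site, with a median signal of 30.8, against 57.5 in middle and 104.6 in rich genes. In bulk tissue, fewer cells with an open site and a weaker site in every cell cannot be told apart.

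Along the gene, density was almost flat. Each gene span was divided into 10 equal segments, which had, from the 5′ to the 3′ end, 6.37, 6.33, 6.01, 6.13, 5.70, 6.04, 6.15, 6.43, 6.998 and 7.08 sites per 100 kb. In peaks, the first segment had 9.19 and 8.48 per 100 kb and the last 9.79 and 9.05 in replicates 1 and 2, while the fifth had 8.46 and 7.45. The lowest value thus lay near the middle and the highest at the 3′ end in shared sites. The ratio of the first to the last segment was 0.901, and it became 1.00 when genes of at least 200 kb were taken.

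By distance, the first 50 kb from the 5′ end had 7.34 sites per 100 kb and the rest of the gene 6.22, a ratio of 1.18 (1.17 in replicate 1 and 1.19 in replicate 2). Beyond 300 kb density was 5.76, but only longer genes reach that far. With sites over 5 kb from every TSS the ratio of the first 50 kb to the rest was 1.06. In rich genes the first 50 kb had 17.0 and the rest 17.3, in middle genes 6.01 and 5.14, and in bare genes 1.05 and 0.75. First introns had 6.88 sites per 100 kb and the introns between first and last 6.15, as did last introns with 6.15. The longest intron of a gene, by its longest coding transcript, had 7.11, against 5.81 in the introns that were not the longest.

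**Figure D4:**
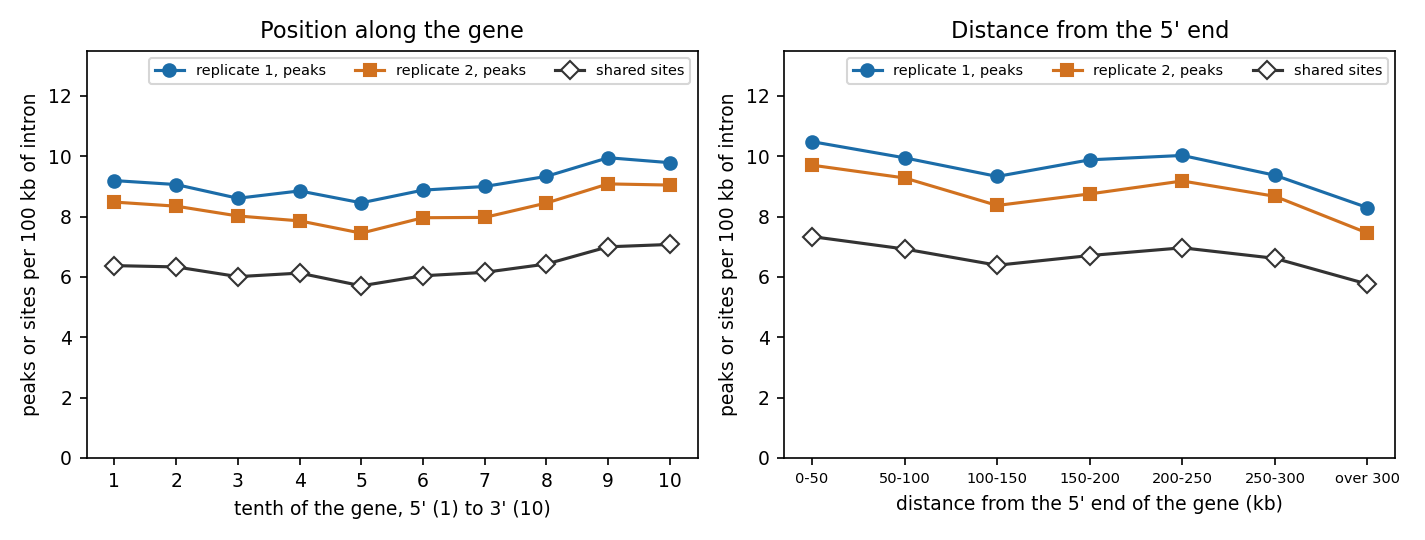
Peaks per 100 kb of eligible intron in replicate 1 (circles) and replicate 2 (squares) and shared sites (diamonds), by the 10 equal segments of the gene from 5′ to 3′ (left) and by distance from the 5′ end in kb (right). Shared sites run between 5.70 and 7.08 over the segments, and stand at 7.34 in the first 50 kb and 5.76 beyond 300 kb.

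Single genes departed from this flat profile. Ptprd had 61 of its 76 sites in the 5 segments nearest the 3′ end, 27 of them in segment 9. Zbtb20 had 59 of 80 and Lsamp 42 of 59 there, and Cntnap2 had 12 of 36 in the last segment and 0 in the first. Gpc6 had 58 of 97 and Esrrg 29 of 45 in the 5 segments nearest the 5′ end. Auts2 (77 toward the 5′ and 65 toward the 3′ end) and Foxp1 (45 and 55) were less uneven. These counts were not divided by eligible sequence. Mecom (49 and 52), Nfia (30 and 32) and Dlg2 (23 and 23) had nearly equal numbers toward the 5′ and the 3′ end.

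**Figure D5:**
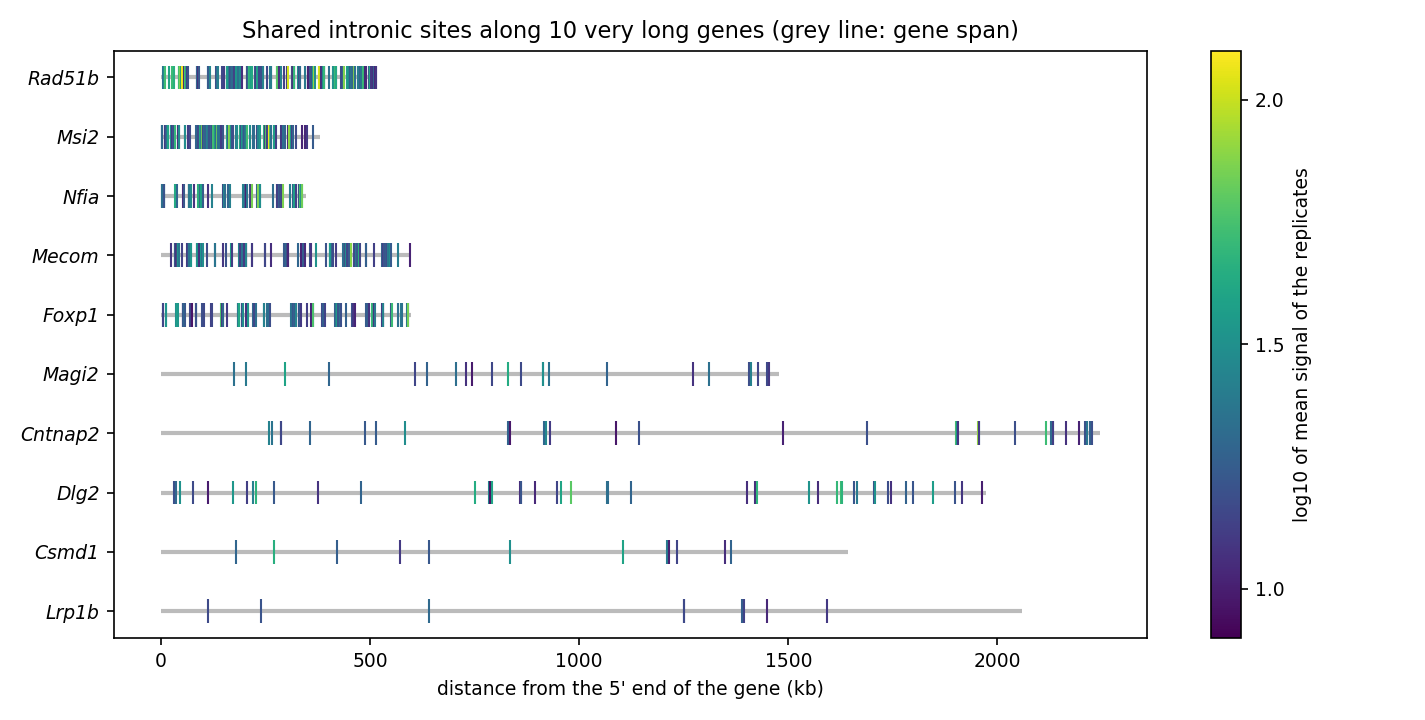
Shared intronic sites (ticks) along 10 very long genes by distance from the 5′ end of the gene in kb, with colour for the log10 of the mean signal of both replicates and a grey line for the gene span. Rad51b, with 148 sites, is covered throughout, while Lrp1b has 9 sites over 2058.4 kb.

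Distances between neighbouring sites varied widely, and they were not compared with a placement at each gene's own density. The median distance to the nearest other site of the same gene was 2290 bp, and 47.5% had a neighbour within 2 kb, 19.3% within 500 bp and 97.6% within 50 kb. The most sites in any 50 kb were 31, in Msi2 and in Gm20388, while Gse1 had up to 27 and Maml3 up to 25. At the other extreme, 97 genes had a stretch of over 200 kb without a site and 14 one of over 500 kb. The longest lay in Malrd1 (716.7 kb) and Sgcz (706.3 kb). Lrp1b had one of 611.8 kb, Cntnap2 of 344.0 kb and Ptprd of 306.1 kb.

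The median signal of single sites differed less between gene classes than the number of sites per base did. Only called peaks have a signal, so sites under the peak caller's threshold are missing from the medians. Signal is the authors' value of the strongest peak in the site, and no source used here gives its scaling. Its median was 19.2 in replicate 1 and 17.4 in replicate 2 for sites in very long genes, against 19.5 and 18.6 for intronic sites of shorter genes. The mean ratio over the replicates was 0.960, and the classes lay further apart in replicate 2 than in replicate 1. Of the member sites, 3.55% (replicate 1) and 2.80% (replicate 2) were among the strongest 10% of all shared autosomal sites, against 4.43% and 4.28% in shorter genes. In the weakest 10% were 11.4% and 13.3% of the member sites, against 11.4% and 11.0%. Median signal was 19.8 and 18.4 in rich, 18.8 and 16.8 in middle and 18.2 and 16.04 in bare genes. These groups were defined by density itself, so their spread in density was not set against that in signal.

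The highest signals were 308.0 and 405.8 (replicates 1 and 2), at chr16:57391521-57391670 in Cmss1, and 265.4 and 381.0, at chr2:5379241-5379410 in Camk1d, a calmodulin-dependent kinase gene. Both sequences had 4 further close matches on the reference chromosomes, so reads of these copies may not be told apart. Copies missing from those chromosomes were not searched. These 2 signals may therefore not come from the introns of Cmss1 and Camk1d. Without further matches the highest were 221.1 and 247.0 in Gm20388, 216.5 and 223.0 in Lrmda and 192.2 and 220.7 in Maml3, the sites printed above. Next came Arid1b, a chromatin remodelling subunit (174.6 and 192.1), and Slc7a11, a cystine transporter gene (191.6 and 157.7), whose GENCODE model spans 551.1 kb, against 134.2 kb in RefSeq, so that this site, 534.5 kb from the 5′ end, lies outside the RefSeq span. A second Maml3 site at chr3:52046981-52047130 had 154.9 and 185.5. The site at chr13:109822461-109822610 in Pde4d, a phosphodiesterase gene, had 155.3 and 176.1, and the site at chr4:32303821-32303970 in Bach2, a transcription factor gene, had 154.9 and 163.7. In others of the densest genes the strongest sites were weaker, with 143.3 and 155.5 in Rad51b, 129.1 and 142.3 in Gse1, and 126.1 and 113.9 in Msi2.

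At the members the signals of the replicates were close. The rule admits only sites with a peak of both, so part of this agreement follows from the selection. Of the sites in very long genes 99.03% had signals within 2-fold of each other, against 99.4% in shorter genes, and Spearman's rho across sites was 0.849 and 0.868. The exceptions leaned to replicate 1, with 151 sites over 2-fold higher in replicate 1 and 27 in replicate 2. Of the peaks in very long genes, 69.7% of replicate 1 and 77.0% of replicate 2 lay in a shared site, against 73.6% and 75.5% in shorter genes. Very long genes thus held relatively more peaks that replicate 1 alone had.

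In sequence, the member sites were poorer in G+C than other intronic sites and richer than their surroundings. The median G+C of their central 150 bp was 46.7%, against 49.3% in sites of shorter genes and 44% in windows 500 bp to each side. Soft-masked bases made up 9.40% of them, against 10.7% in sites of shorter genes and 19.03% in the side windows.

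Motifs were searched as exact letters on both strands of the central 150 bp, and shares are of windows of equal length. Longer motifs (CTCF, REST and HNF1) are given by name, and CTCF matches are the 12-letter capitals above. The CTCF motif occurred in 4.79% of member sites (exact binomial 95% interval 4.49 to 5.11%), against 0.741% of side windows and 7.22% (6.999 to 7.45%) of sites in shorter genes. Among members it occurred in 3.797% of sites in rich genes (3.38 to 4.25%), 5.47% in middle genes and 7.09% in bare genes (4.76 to 10.1%, 28 of 395 sites). CTCF binds insulators and the anchors of chromatin loops. The motif thus occurred at a smaller share of sites in rich genes than in bare genes. The intervals of these 2 groups did not overlap, but they treat sites as independent, and many sites share a gene. The single model Gm20388 held 54 of the 296 matches in rich genes. Whether the matched sites act as insulators or loop anchors was not tested.

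The motif of REST, the repressor of neuronal genes outside neurons, occurred at 53 member sites, 0.289% (0.216 to 0.378%), against 0 of 36704 side windows (at most 0.0100%) and 0.145% (0.114 to 0.182%) in shorter genes. By list it occurred at 10 of 1108 sites in neuronal channels and receptors, 0.903% (0.434 to 1.65%), and at 5 of 992 in neuronal adhesion genes, 0.504%. In transcription factor genes it occurred at 3 of 1691 sites, 0.177% (0.0366 to 0.518%). It occurred at 7 of 7795 sites in rich genes, 0.0898% (0.0361 to 0.185%), 43 of 10171 in middle genes, 0.423% (0.306 to 0.569%), and 3 of 395 in bare genes, 0.759% (0.157 to 2.20%).

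Motifs of developmental factors were in part more frequent than in shorter genes. The HOX9-11 motif CCATAAA occurred in 4.21% of member sites (3.92 to 4.51%), against 2.69% of side windows and 3.11% (2.96 to 3.26%) in shorter genes. TEAD (CATTCCA) occurred in 5.04%, against 2.59% in side windows and 4.60% in shorter genes, and the Six2 motif (TCANGTTNC) in 3.46%, against 1.88% and 3.11%. The E-box CAGCTG occurred in 15.5%, against 6.91% and 16.4%. The motif of HNF1, a kidney tubule factor, occurred at 17 sites, 0.0926%, against 0.0218% and 0.0717%. WT1 (GCGTGGGAG), of a podocyte factor, occurred at 37 sites, 0.202%, against 0.0354% and 0.300%. GATA was less frequent than in side windows, with 7.46% against 9.36%, and 6.52% in shorter genes. AP-1 (TGANTCA) occurred in 6.68%, against 4.72% and 6.92%, and the FOX motif in 3.51%, against 2.47% and 3.14%. RUNX occurred in 3.71%, against 3.37% and 3.82%, and SOX in 1.97%, against 1.997% and 1.74%. NFI, HNF4, ETS, MEF2, ESRR and steroid receptor motifs each occurred in 0.114% (NFI) to 0.398% (ESRR) of member sites. The part of the lower G+C of member sites in these shares was not tested. A match is a description of the letters, and binding was not measured.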

How the data were processed

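DNase-seq peaks of newborn kidney (2 replicates, 1 group) were used. Per the file headers, each list was made from 1 alignment of 36-nt reads to mm10, so peaks were called per sample. Aligner, peak caller, filters and depth remain not given in the sources used here. Column 7, the deposited signal of each peak, was used as the authors gave it, to rank and describe sites. The deposited −log10 p (column 8) was only inspected. All value columns were mapped to a sample (0 were not).

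Sites were unions of overlapping peaks (at least 1 bp) that held a peak of both replicates, on chromosomes 1 to 19. The X and Y chromosomes were left out by the rule. Gene spans, exons and TSSs came from GENCODE M21. A site in several very long genes was counted in each for values per gene and once in totals. A second gene named Arhgap26 was kept under its gene identifier. For G+C, introns were cut into 10 kb bins in 9 classes.

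The members, the gene lists and the alternatives were chosen with earlier results of these data known. The rule for named genes takes the 10 densest and the 10 least dense, the 5 with most sites, the 5 longest, in each list the 2 densest and the 2 least dense, and 16 genes whatever their values. Of sites it takes the 10 strongest and the strongest of each of the 5 densest genes. Dach1, the genes at the 300 kb threshold and those with the longest gaps were named after their values were seen. Of the genes the rule names, 1 is not reported here.

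With 1 group, gene classes and positions were compared within each replicate by exact two-sided paired permutation tests on log2 ratios, whose smallest p with 2 pairs is 0.5. Exact Poisson and binomial intervals (95%) cover counting error only. Further matches came from blastn 2.17.0 on the chromosomes of GRCm38. Motifs overlap where their letters do. All values were computed in Python 3.11.15 with scipy 1.17.1, pandas 2.3.3 and numpy 2.4.6, and plotted with matplotlib 3.10.9. Merging of peaks, counting of sites and density per gene were tested on simulated data with known answers, and the G+C step was not. Alternatives changed the overlap, the signal threshold, the replicates, the gene length, the distance from TSSs and the treatment of overlapping genes. Those on base composition, on genes mostly inside others and on RefSeq length were added after seeing the data.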

Additional observations from a re-analysis of the deposited data

How the results depend on the processing

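The lower density in very long genes, by its ratio to shorter genes, kept its direction under the alternatives on overlap, signal, replicates, gene length, distance from TSSs and overlapping genes. Within G+C classes it did so under 42% and not throughout from 42% up, where single replicates gave 1.02 and 0.977 (42 to 44%), 1.02 and 1.00 (46 to 48%) and 1.03 and 1.01 (48 to 50%). Of the alternative values, 41 stayed within the spread or count limits, 62 moved and 2 changed direction, and where no construction of the alternative shows it the cause was not tested. A 75 bp overlap gave a density of 5.54 sites per 100 kb, a signal ratio of 0.955, a first to last segment ratio of 0.903 and 43.3% of sites with a neighbour within 2 kb. Peaks at or above the median signal gave 8514 sites, a density of 2.92, a ratio to shorter genes of 0.608, a signal ratio of 0.957, a ratio with to without a promoter site of 2.40, a first 50 kb ratio of 1.15, a segment ratio of 0.852, 32.4% with a neighbour and 30.3% of sites in the densest 10% of genes. Single replicates gave densities of 8.22 to 9.07, ratios to shorter genes of 0.639 to 0.687, signal ratios of 0.966 to 0.968, promoter ratios of 1.72 to 1.98, segment ratios of 0.938 to 0.939, 58.5% to 59.5% with a neighbour, 24.7% to 25.8% in the densest 10%, 23998 to 26476 peaks in place of sites, 80 to 89 bare and 99 to 108 rich genes and first 50 kb ratios of 1.17 to 1.19. These signal ratios were over all peaks of each list, not over shared sites, where the replicates lay further apart. Their narrow spread set the limit by which signal ratios were sorted as moved. Genes of at least 200 kb gave 27562 sites, 7.23, 0.758, a signal ratio of 0.957, 148 bare and 192 rich genes, a promoter ratio of 2.05, a first 50 kb ratio of 1.27, a segment ratio of 1.00 (from 0.901, so its direction changed), 49.4% with a neighbour and 22.5% in the densest 10%. Genes of at least 500 kb gave 9284 sites, 5.24, 0.559, a signal ratio of 0.956, 36 bare and 33 rich genes, a first 50 kb ratio of 1.14, a segment ratio of 0.815, 45.6% and 31.0%. Sites over 5 kb from every TSS gave a signal ratio of 0.963, a first 50 kb ratio of 1.06, a segment ratio of 0.807, 46.2% and 24.5%. Without sequence in other genes the signal ratio was 0.955, the promoter ratio 1.83, the first 50 kb ratio 1.20, the segment ratio 0.880 and the share of the densest 10% 23.5%. Within G+C classes from low to high, the ratio to shorter genes was 0.686, 0.713, 0.783, 0.887, 0.995, 0.950, 1.00, 1.00 and 0.920. The values within G+C classes, without genes mostly inside others (6.03 sites per 100 kb, ratio 0.624) and with RefSeq lengths (6.09, ratio 0.629) were chosen after seeing the data. No paired analysis was possible because there are no 2 groups of samples to pair. Gene classes were compared within each replicate instead, and the exact paired permutation test over the 2 replicates cannot go below p = 0.5. Depth is unknown, so an empty intron shows only that no peak was called there.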
